A study of Rattus norvegicus with 4 samples.

Results

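The microRNAs (miRNAs) that lie within the Hox gene clusters were examined in the fracture callus of the rat, the tissue that forms around a broken bone and joins its ends. The members were chosen by name and not by any level: every array probe for rat miR-10a, miR-10b, miR-196a, miR-196b or miR-615, with either arm of the precursor or with no arm given, was a member. This gave 9 of the 727 rat miRNA probes, namely rno-miR-10a-5p, rno-miR-10b-5p, rno-miR-196a-5p and rno-miR-196b-5p, the 3′ arms of these 4, and rno-miR-615, written below without the species prefix. The choice was made with earlier results of these data known, in which the levels on all 4 arrays had been seen, so the values are given as a description and carry no test.

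Each of 4 one-colour arrays held RNA from the pooled callus of 5 male Sprague-Dawley rats, 12 weeks old, with a closed transverse fracture of the right femoral shaft held on an intramedullary wire. Control callus came from rats injected with sodium chloride and was taken on day 5 or day 11 after the fracture. Diabetic callus came from rats given 1 intravenous injection of 40 mg/kg streptozotocin, which destroys the insulin-producing beta cells, and was taken on the same days. The labels give a blood glucose over 300 mg/dl for the diabetic rats and a normal one for the controls. Streptozotocin makes rats insulin-deficient and is a model of impaired fracture repair in the submitters' design. With 1 pool and 1 array per group, no difference below has a replicate, and the spread between animals is not known.

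Hox genes encode transcription factors that give cells their position along the body and limb axes, and connective tissue and bone cells of the adult limb keep part of the Hox pattern set in the embryo. A few miRNAs are encoded between these genes and are often transcribed along with them. miRNAs of the miR-10 and miR-196 families bind messages of Hox genes, and Hoxb8 is a well-known target of miR-196 in the mouse. A miRNA recognises its targets mainly through its seed, the bases from position 2 to 8 counted from its 5′ end.

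In the RefSeq annotation of the rat genome build GRCr8, Mir10a lay between Hoxb5 and Hoxb4, and Mir10b within the span of Hoxd4. Mir196a lay between Hoxc10 and Hoxc9, and Mir196b between Hoxa9 and Hoxa10. Mir615 lay within the spans of both Hoxc5 and Hoxc6. Whether a hairpin is intronic or exonic was not read here. The hairpins were at chr10:81779709-81779818 (plus strand) for Mir10a, chr3:80035859-80035967 (plus) for Mir10b, chr7:135988876-135988985 (plus) for Mir196a, chr4:82661101-82661185 (minus) for Mir196b and chr7:136030353-136030444 (plus) for Mir615. RefSeq sequences were matched by name for 8 of the 9 members, and miR-196a-3p was named only.

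The mature sequences of the members on which the values below turn are shown so that the seeds can be compared, 5′ to 3′ with the seed in capitals.
miR-10a-5p: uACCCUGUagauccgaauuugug
miR-10b-5p: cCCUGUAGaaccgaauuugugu
miR-196a-5p: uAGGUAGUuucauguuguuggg
miR-196b-5p: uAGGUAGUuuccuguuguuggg
miR-196b-3p: uCGACAGCacgacacugccuuca
miR-615: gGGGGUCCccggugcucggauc

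The 5′ arms of miR-196a and miR-196b had the same seed and differed at 1 base of 22, A12C, with positions counted from the 5′ end of miR-196a-5p and the base of miR-196a-5p written first. The only other rat miRNA in the table with this seed was miR-196c-5p, whose gene lay between Hoxb13 and Hoxb9 and which differed from miR-196a-5p by A12G. miR-10a-5p and miR-10b-5p also differed at 1 base where they overlap (U12A, counted in miR-10a-5p), with 20 of 21 bases identical. The annotated miR-10b-5p, however, starts 2 bases further in, so its seed as annotated, CCUGUAG, was not the ACCCUGU of miR-10a-5p, and neither seed was found in any other mature miRNA of the table.

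The hairpin of Mir10b is printed to show this start, with both annotated arms in capitals, and the hairpin of Mir615 to show that its 1 annotated miRNA, at bases 17 to 38 of 92, is on the 5′ side.
Mir10b: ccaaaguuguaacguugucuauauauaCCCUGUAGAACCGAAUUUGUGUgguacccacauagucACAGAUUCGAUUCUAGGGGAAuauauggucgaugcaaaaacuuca
Mir615: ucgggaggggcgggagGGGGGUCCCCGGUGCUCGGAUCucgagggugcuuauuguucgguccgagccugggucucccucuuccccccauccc

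The first 8 bases of miR-10a-5p were present in the Mir10b hairpin, since the 2 bases before the annotated start are ua. miR-615 was the member richest in G and C, at 77.3% of its bases, against 40.9% to 56.5% for the 5 other sequences shown. The probe sequences of the array are not given in the files, so how well a spot separates sequences that differ at 1 base was not tested.

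To obtain a level, the mean intensity of the blank spots was taken off each spot, and each array was then multiplied by 1 factor that brought the median over the 400 miRNAs seen on every array to 100. A miRNA was detected where its spot exceeded the blank mean by more than 2 SD of the blank spots. Between 482 (66.3%) and 560 (77.0%) of the 727 miRNAs were detected per array, and the diabetic day 11 array was the dimmest, where the spike control spots averaged 14319 against 32447 to 36446 on the others. A technical error was attached to each log2 difference. It combines the spread of replicate spike control spots, whose log2 SD was 0.056 to 0.095, with that of the blank spots, whose SD was 5.01 to 5.93 on the level scale, and holds nothing of the variation from animal to animal, pool to pool or hybridisation to hybridisation. Levels of different miRNAs come from different probes and are not set against each other. The marker miRNAs of a cell type are an exception, since their levels are summed below and the brightest probes weigh most in a sum.

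Of the 9 members, 7 were detected on all 4 arrays, and 400 of all 727 miRNAs were (55.0%). The 2 others, miR-10a-3p and miR-196a-3p, were detected on 1 array each. The 5′ arms and miR-615 were bright, at 38.2 or more blank SDs above the blank mean on every array. The exact values follow by family.

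**Figure D1:**
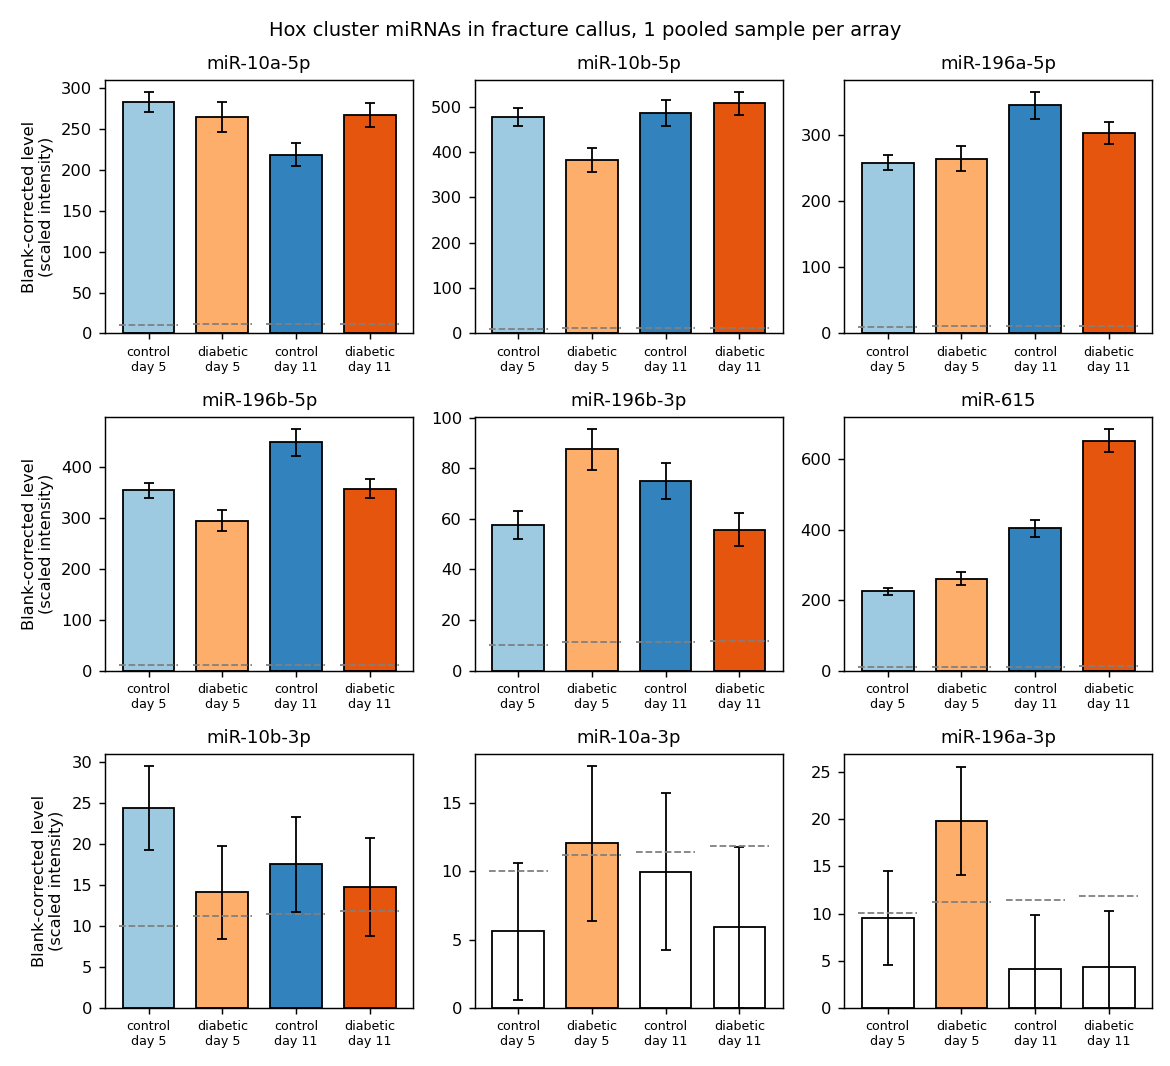
Blank-corrected level (scaled intensity, linear axis from 0) of the 9 Hox cluster miRNAs on the 4 arrays, 1 pool of 5 rats each. Error bars are 1 technical error from spike and blank spots, the dashed line is the detection limit and white bars are below it; miR-615 goes from 225 in control callus on day 5 to 653 in diabetic callus on day 11, while the 5′ arms of miR-10 and miR-196 stay within 1.52-fold.

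miR-615 had the widest range of the members detected on all arrays. On day 5 its level was 225 in control callus and 261 in diabetic callus, and on day 11 these were 404 and 653. Both day 11 arrays were thus above both day 5 arrays, and within each day the diabetic callus was the higher one. The highest and the lowest level were 2.90-fold apart. In the order of the levels, diabetic day 11 lay above control day 11 by 0.69 ± 0.11 on the log2 scale (difference ± technical error), and control day 11 above diabetic day 5 by 0.63 ± 0.13. The 2 lowest neighbours, diabetic and control callus on day 5, differed by 0.21 ± 0.12, which is under 2 technical errors.

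From day 5 to day 11, miR-615 was 2.51-fold higher in diabetic callus (log2 1.33 ± 0.12) and 1.79-fold higher in control callus (log2 0.84 ± 0.11). Diabetic callus was 1.62-fold above control callus on day 11 and 1.16-fold on day 5. In diabetic callus over time, miR-615 was the 1 member of 7 that was at least 2-fold different, and 11.9% of the 444 miRNAs detected on both arrays were. Counted in the higher direction alone, these were 17 miRNAs, or 3.83%. The difference lay at percentile 98.2 of all miRNAs compared, and that of control callus over time at percentile 91.5. On day 11 the difference between diabetic and control callus lay at percentile 91.5 as well, and on day 5 at 66.2.

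The difference of miR-615 between diabetic and control callus on day 11 depended on the background that was taken off. With normexp correction and quantile scaling it was 0.66 on the log2 scale when the blank mean was the background and 0.16 when the local background of each spot was, against a main value of 0.69. The local background of this spot was 38.9% of it on the control day 11 array and 29.4% on the diabetic day 11 array, and 23.1% and 24.0% on those of day 5. The difference over time in diabetic callus was 1.10 with normexp on the blank mean and 1.02 with normexp on the local background, and that in control callus was 0.58 and 0.94. In the authors' deposited value table, miR-615 was at 84.96 in control callus and 121.14 in diabetic callus on day 5, and at 160.12 and 248 on day 11, which is the same order of the arrays.

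**Figure D2:**
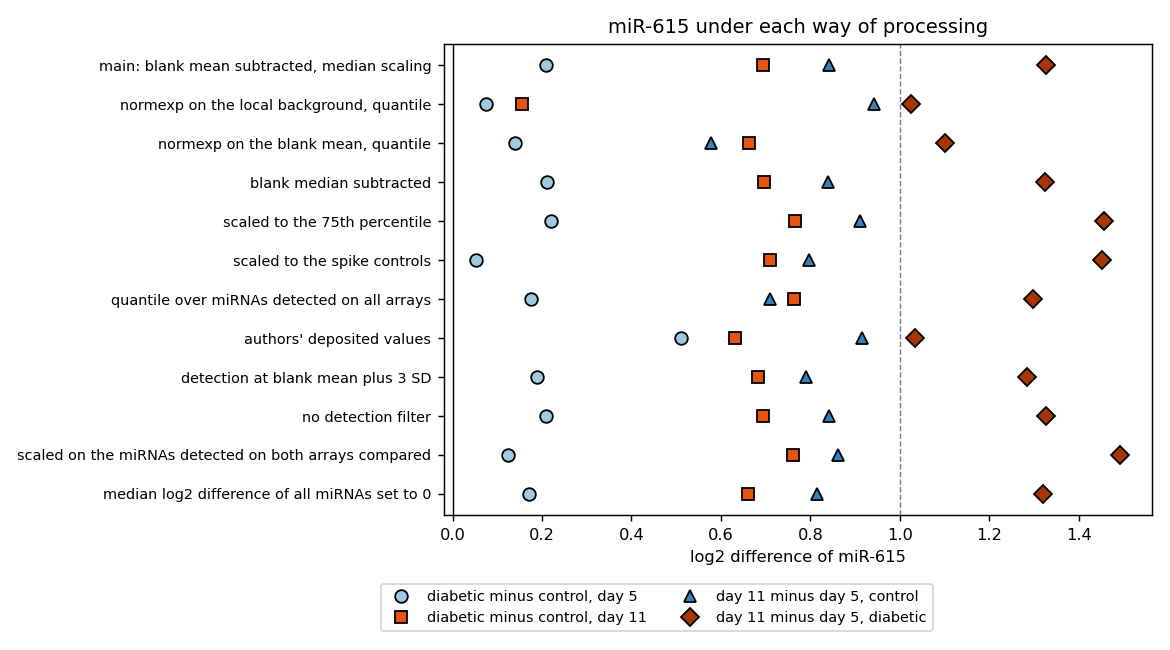
log2 difference of miR-615 (horizontal axis) in the 4 comparisons under each way of processing (vertical axis), with the dashed line at 2-fold. Every point is above 0, the difference over time in diabetic callus is at least 1.02 throughout, and the difference between diabetic and control callus on day 11 drops to 0.16 with normexp on the local background.

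Base composition was set beside the differences. Across the 403 miRNAs with a known sequence, the log2 difference of day 11 against day 5 in control callus had a correlation of 0.27 with the percentage of G and C, and across 405 in diabetic callus it was 0.24. All points of a comparison share the same 2 arrays. The correlations were -0.0025 and -0.089 for diabetic against control callus on days 5 and 11, over 425 and 389 miRNAs. Of the 14 miRNAs with at least 70% G and C, miR-615 among them, 3 were at least 2-fold higher over time in diabetic callus, and their median log2 difference was 0.39 against 0.0065 over all miRNAs. In the other comparisons 13 such miRNAs were detected on both arrays. Their median was 0.16 over time in control callus, with 1 at least 2-fold higher, against 0.028 over all miRNAs. It was 0.066 on day 5, against 0.038, and 0.33 on day 11, against 0.034, where miR-615 was the highest of the 13. The part of base composition in the values of miR-615 was not tested.

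The levels of marker miRNAs of cell types also differed between the arrays. In whole tissue, fewer cells of a type and less of a miRNA per cell cannot be told apart. In the order control day 5, diabetic day 5, control day 11, diabetic day 11, the summed level of the 3 skeletal mesenchyme miRNAs (both arms of miR-199a, and miR-214-3p) was 20153, 20851, 24894 and 30095, the same order of arrays as for miR-615. The order of the 2 day 5 arrays was not resolved, however. There the log2 differences of miR-199a-3p, miR-199a-5p and miR-214-3p were 0.042, 0.057 and 0.085, each below the spike log2 SD of the diabetic array, 0.095. The summed level of the 4 cartilage miRNAs (miR-140 and miR-455, with their 2 arms each) was 2310.3, 2557, 18169 and 5642.5, highest in control callus on day 11.

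The 5 skeletal muscle miRNAs, miR-1-3p among them, summed to 28356, 29676, 9412 and 9999, and the 4 leukocyte miRNAs, miR-223-3p among them, to 8383, 5092, 1229.7 and 1479. The 2 endothelial miRNAs, the arms of miR-126a, summed to 6973, 5492, 3951 and 4159.9. Muscle, leukocyte and endothelial markers were thus all lower on day 11, opposite to miR-615. The 2 erythroid miRNAs, miR-451-5p and miR-144-3p, summed to 512, 1445, 1591 and 1556. Cartilage and erythroid sums, like that of skeletal mesenchyme, were higher on day 11 in both groups, as miR-615 was. In diabetic callus the erythroid differences over time were small, at log2 0.10 for miR-451-5p and 0.14 for miR-144-3p. All markers of these 6 lists were detected on every array. Of the 6 epithelial miRNAs, 1, 5, 2 and 4 were detected in the same order, with summed levels of 84.0, 171, 89.4 and 121, and miR-200a-3p was below detection on all 4 arrays. The part of the cell content in the values of the Hox cluster miRNAs was not tested.

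Among the 399 other miRNAs detected on all 4 arrays, the pattern most like that of miR-615 was that of miR-666-5p. Likeness was measured as the root mean square of the log2 differences after each miRNA was centred on its own mean over the 4 arrays, and was 0.099 for miR-666-5p, 0.11 for miR-290 and 0.14 for miR-195-3p, against a median of 0.67 over all 399. miR-666-5p was at 110 and 133 in control and diabetic callus on day 5 and at 179.6 and 282 on day 11. The measure rests on 4 arrays and leaves out the technical error. That error is large for dim miRNAs such as miR-195-3p, at 14.8 and 13.6 in control and diabetic callus on day 5.

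The 5′ arms of miR-196a and miR-196b were higher on day 11 than on day 5 in both groups, by less than 2-fold, but the sign turned for miR-196b-5p with normexp on the local background and, in diabetic callus, for both in the authors' values. miR-196a-5p was at 257 in control callus and 264 in diabetic callus on day 5, and at 344 and 303 on day 11. The 2 day 5 arrays were the lowest and the control day 11 array was the highest. The difference over time was 0.42 ± 0.11 in control callus (1.34-fold higher) and 0.20 ± 0.13 in diabetic callus, of which the second was under 2 technical errors. Diabetic and control callus differed by 0.037 ± 0.12 on day 5 and by -0.19 ± 0.11 on day 11.

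miR-196b-5p was at 354 in control callus and 295 in diabetic callus on day 5, and at 449 and 357 on day 11. It was lower in the diabetic callus on both days, 1.20-fold on day 5 (log2 -0.27 ± 0.12) and 1.26-fold on day 11 (log2 -0.33 ± 0.11). In the authors' deposited values the day 5 difference was of opposite sign, at 133.64 in control callus and 137.03 in diabetic callus. Over time it was 1.27-fold higher in control and 1.21-fold higher in diabetic callus. Control callus on day 5 and diabetic callus on day 11 were at nearly the same level, 0.011 ± 0.096 apart on the log2 scale. Its local background was 71.4% of the spot on the control day 11 array and 49.6% on the diabetic day 11 array. With normexp on the local background, the difference on day 11 was 0.17, and over time it was -0.56 for control and -0.11 for diabetic callus, all of opposite sign.

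miR-196c-5p, which shares the seed but was not among the members, was at 59.6 and 63.2 in control and diabetic callus on day 5 and at 88.8 and 100.2 on day 11. The difference over time was 0.58 ± 0.18 in control and 0.67 ± 0.19 in diabetic callus, and it was above 0 under every alternative in both groups (0.31 to 0.68 and 0.23 to 0.83). The difference of miR-196a-5p and that of miR-196c-5p over time were 0.16 ± 0.21 apart in control callus and 0.47 ± 0.23 apart in diabetic callus. miR-196c-3p was detected in diabetic callus on day 5, at 20.2, and in control callus on day 11, at 16.7, and was below detection on the other 2 arrays.

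The 3′ arm of miR-196b parted from its 5′ arm in the 2 comparisons that use the diabetic day 5 array. miR-196b-3p, which is made from the same hairpin but has an unrelated seed, was at 57.7 in control callus and 87.5 in diabetic callus on day 5, and at 75.1 and 55.8 on day 11. It was highest in diabetic callus on day 5 and lowest in diabetic callus on day 11. Diabetic callus was 1.52-fold above control callus on day 5 (log2 0.60 ± 0.19) and 1.35-fold below it on day 11 (log2 -0.43 ± 0.22), the latter just under 2 technical errors. Under the alternatives these ran from 0.20 to 0.90 and from -0.51 to -0.22, with normexp on the local background giving 0.20 on day 5. On day 5 the log2 differences of the 2 arms were 0.87 ± 0.22 apart, and over time in diabetic callus -0.93 ± 0.25. They were -0.100 ± 0.25 apart on day 11 and 0.040 ± 0.22 apart over time in control callus. With normexp on the local background both arms were lower over time in diabetic callus, at -0.27 for the 3′ arm and -0.11 for the 5′ arm. Its spot was 9.42 to 15.6 blank SDs above the blank mean.

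The 3 miRNAs nearest to miR-196a-5p in pattern were miR-23a-5p, miR-675-5p, which comes from the H19 RNA, and miR-328b-3p, at distances of 0.020, 0.030 and 0.034. Those nearest to miR-196b-5p were miR-383-5p, miR-6215 and let-7c-5p, at 0.055, 0.059 and 0.077. Of these, miR-383-5p was dim, at levels of 14.4 to 21.0 where the blank SD was 5.01 to 5.93, so its place is uncertain. For miR-196b-3p they were miR-540-5p, miR-370-3p and miR-155-5p, at 0.063, 0.10 and 0.11.

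**Figure D3:**
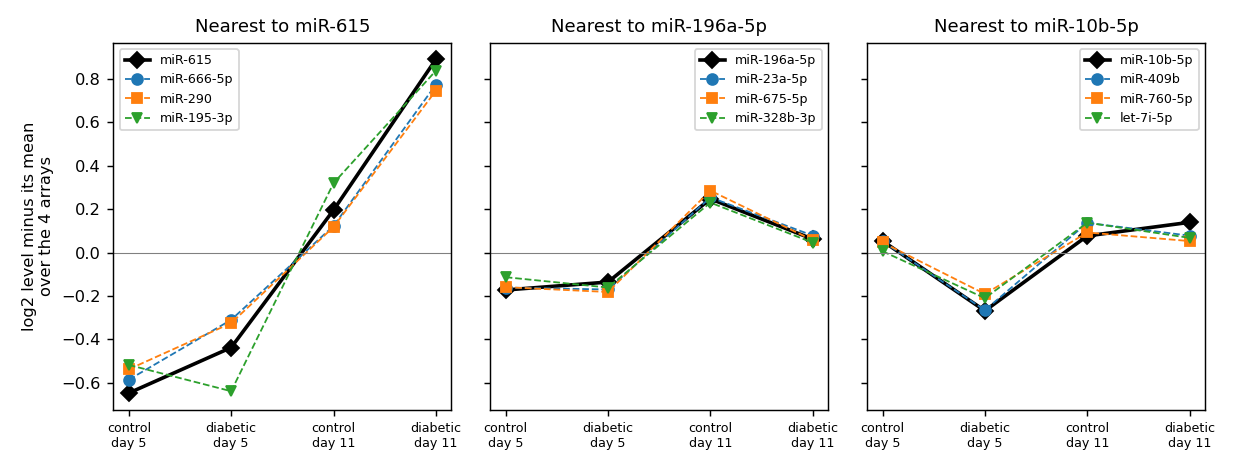
log2 level minus its mean over the 4 arrays (vertical axis) for miR-615, miR-196a-5p and miR-10b-5p (black) and the 3 miRNAs nearest to each in pattern (dashed), by array. The line of miR-615 goes up over the 4 arrays as drawn, those of the 2 others stay within a narrower range.

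The 5′ arms of miR-10a and miR-10b were among the steadier members. miR-10a-5p was at 284 in control callus and 265 in diabetic callus on day 5, and at 219 and 267 on day 11. The control day 11 array was the lowest and the other 3 were within 2 technical errors of their neighbours. miR-10a-5p was 1.30-fold lower on day 11 than on day 5 in control callus (log2 -0.37 ± 0.11) and 0.015 ± 0.13 apart in diabetic callus. Diabetic callus was 0.29 ± 0.12 above control callus on day 11, or 1.22-fold, and -0.100 ± 0.12 on day 5. Under the alternatives the day 11 difference ran from 0.098 to 0.36.

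miR-10b-5p was at 478 in control callus and 382 in diabetic callus on day 5, and at 486 and 507 on day 11. Here the diabetic day 5 array was the lowest, and the other 3 were within 2 technical errors of their neighbours. Diabetic callus was 1.25-fold below control callus on day 5 (log2 -0.32 ± 0.11), and 0.062 ± 0.11 above it on day 11. Over time miR-10b-5p was 1.33-fold higher in diabetic callus (log2 0.41 ± 0.12) and 0.024 ± 0.10 apart in control callus. Under the alternatives the day 5 difference ran from -0.48 to -0.019, and that over time in diabetic callus from 0.11 to 0.57. The values nearest to 0 were those with the authors' deposited values.

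The array on which each was lowest was thus not the same for these sequences, which differ at 1 base where they overlap and have different annotated starts. The differences of miR-10a-5p and miR-10b-5p over time were -0.40 ± 0.15 apart in control and -0.39 ± 0.18 apart in diabetic callus, with miR-10a-5p the lower one. Between diabetic and control callus they were 0.22 ± 0.16 apart on day 5 and 0.23 ± 0.16 on day 11. The nearest miRNAs in pattern were miR-347, miR-1843-3p and miR-365-3p for miR-10a-5p, at distances of 0.035, 0.039 and 0.065, and miR-409b, miR-760-5p and let-7i-5p for miR-10b-5p, at 0.043, 0.059 and 0.060.

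A few sequence relatives outside the Hox clusters are given for comparison, chosen with earlier results known. miR-100-5p and miR-99b-5p share with each other a seed, ACCCGUA, that is close to the one of miR-10a-5p. In an alignment without gaps, miR-100-5p was set to start 1 base further in than miR-10a-5p. There 19 of 22 overlapping bases were identical, and the differences, counted in miR-10a-5p, were C3A, U6C and U18C. An alignment with a gap was not made. miR-100-5p was at 1836 and 1386 in control and diabetic callus on day 5, and at 2799 and 1472 on day 11. miR-99a-5p was at 2108 and 1579.5 on day 5 and at 3063 and 1829 on day 11, and miR-99b-5p at 541 and 499 on day 5 and at 637 and 504 on day 11. All 3 were lower in diabetic callus on both days, except that miR-99b-5p was higher on day 5 in the authors' values. On day 11 their log2 differences were -0.93, -0.74 and -0.34, where miR-10a-5p and miR-10b-5p were at 0.29 and 0.062.

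The 3′ arms of miR-10 and miR-196a were dim. miR-10b-3p was at 24.4 and 14.1 in control and diabetic callus on day 5 and at 17.5 and 14.7 on day 11, only 2.48 to 4.86 blank SDs above the blank mean, and none of its differences reached 2 technical errors. The largest was diabetic minus control on day 5, at -0.79 ± 0.66. miR-10b-3p was nearest in pattern to miR-342-5p, miR-381-3p and miR-346, at distances of 0.071, 0.11 and 0.13.

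miR-196a-3p was detected in diabetic callus on day 5, at 19.8 or 3.53 blank SDs, and was at 9.51, 4.14 and 4.38 on the control day 5, control day 11 and diabetic day 11 arrays, below detection. Diabetic callus on day 5 was at least 1.94-fold above control callus of that day and at least 1.66-fold above diabetic callus on day 11, as bounds against the lowest detected level of the dimmer array. These bounds, like those of miR-10a-3p below, leave out the technical error of the brighter spot. With normexp on the local background, the log2 difference on day 5 was -0.020, so its direction did not hold. miR-10a-3p was just above detection in diabetic callus on day 5, at 12.1 or 2.15 blank SDs, and was at 5.60, 9.98 and 5.90 elsewhere. Its bounds were at least 1.18-fold above control callus of that day and at least 1.01-fold above diabetic callus on day 11, and with normexp on the local background the first was of opposite sign (log2 -0.24). That array detected the most miRNAs of all, 560.

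Between diabetic and control callus, the sizes of the members' differences, whatever their sign, ran from percentile 8.76 to 86.5 of all miRNAs on day 5 and from 10.6 to 82.0 on day 11. None of the 7 members detected on all arrays was at least 2-fold different on day 5, where 6.84% of 468 miRNAs were, or on day 11, where 8.78% of 433 were; with 7 members, a count of 0 is near these shares. On day 5, 3 members were higher and 4 lower in diabetic callus (2 to 5 higher under the alternatives that compare all 7), with a median log2 difference of -0.100 against 0.038 over all miRNAs. On day 11, 3 were higher (2 to 4) and 4 lower, with a median of -0.19 against 0.034. miR-615 was higher on both days under each of the 11 alternatives. The signs of 3 others rest on differences under 1 technical error and turn with the processing: that of miR-196a-5p on day 5 under 3 alternatives, that of miR-10b-5p on day 11 under 2 and that of miR-10a-5p on day 5 in the authors' values. The sign of miR-196b-5p also turned, although its differences on both days were over 2 technical errors. It turned on day 5 in the authors' values and on day 11 with normexp on the local background.

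Over time, 5 of the 7 members were higher (4 to 5 under the alternatives) and 2 lower on day 11 in control callus, the lower ones being miR-10a-5p and miR-10b-3p. Their median was 0.34 against 0.028 over all miRNAs, and 0 were at least 2-fold different, against 13.9% of 446 miRNAs. In diabetic callus 6 were higher and miR-196b-3p was lower, and under the alternatives 2 to 6 were higher, with a median of 0.20 against 0.0065. Some of these signs rest on differences under 1 technical error. They are those of miR-10b-5p and miR-10b-3p in control callus and of miR-10a-5p and miR-10b-3p in diabetic callus. The comparisons over time share arrays with those between diabetic and control callus, so they are not separate evidence. Differences over 2 technical errors were found for 3, 3, 4 and 4 of the 7 members in the comparisons on day 5, on day 11, over time in control and over time in diabetic callus, against 29.9%, 36.0%, 49.8% and 42.1% of all miRNAs compared.

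**Figure D4:**
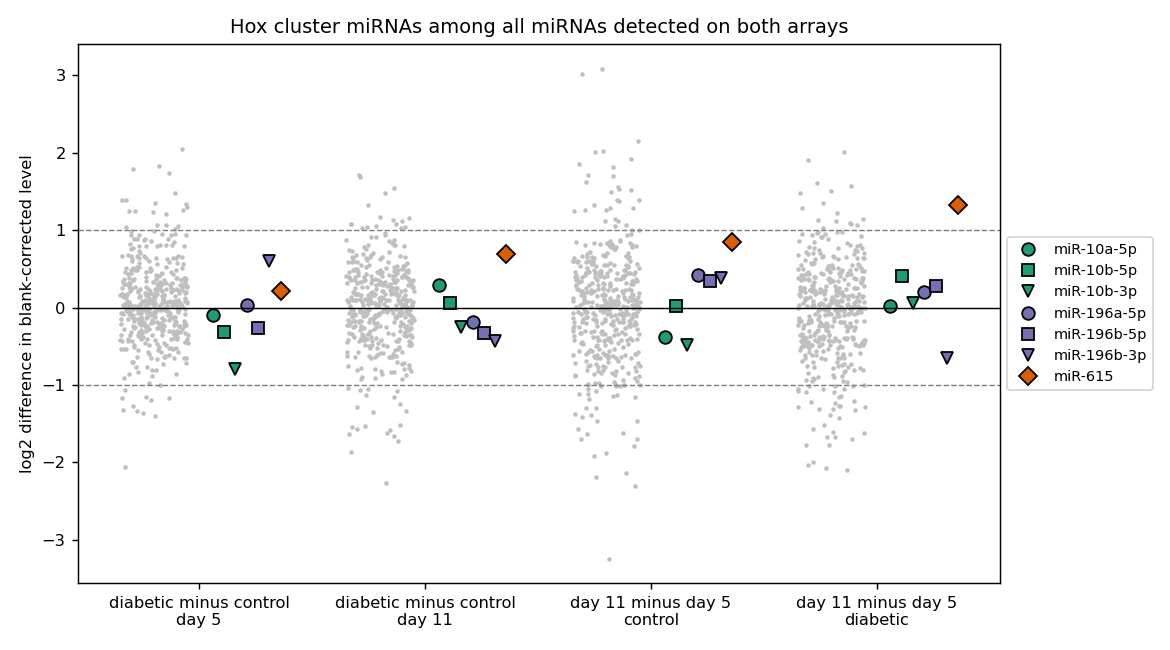
log2 difference in blank-corrected level (vertical axis) of the 7 Hox cluster miRNAs detected on all arrays (coloured) and of all other miRNAs detected on both arrays (grey), for the 4 comparisons. Dashed lines mark 2-fold; miR-615 over time in diabetic callus, at 1.33, is the 1 coloured point beyond them.

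The spread over the 4 arrays was low for most 5′ arms. The SD of the log2 level was 0.16 for miR-10a-5p, 0.18 for miR-10b-5p, 0.19 for miR-196a-5p and 0.25 for miR-196b-5p, at percentiles 11.2, 14.2, 16.5 and 31.8 of the 400 miRNAs detected on all arrays, whose median was 0.36. That of miR-196b-3p was 0.31 (percentile 42.8) and that of miR-10b-3p 0.36 (percentile 50.2). miR-615 stood at 0.69, at percentile 87. Its neighbour in the Hoxc cluster, miR-196a-5p, moved less: their log2 differences over time were 0.42 ± 0.15 apart in control and 1.13 ± 0.18 apart in diabetic callus, and those between diabetic and control callus on day 11 were 0.88 ± 0.16 apart.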

How the data were processed

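Per the file headers, the deposited scanner files hold the median intensity of each spot and of its local background at 635 nm, read at 3 gains, with no background subtracted; 0 miRNA spots were marked unusable. Per the labels' protocols, total RNA was labelled with Cy5 using the 3D-Gene miRNA kit. How the authors' deposited value table (linear intensity) was made is not given in the sources used here. Its values matched the spot minus the blank mean times 1 factor per array to within 0.0458% (values over 10), with a median of 25 on each array and 482 to 560 miRNAs listed.

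The blank mean and SD were taken over 1504 blank spots without the highest and lowest 5%. Blank spots replaced the local background because log2 background and log2 spot intensity had correlations of 0.758 to 0.953 over miRNA probes. No p-value was computed, since each group has 1 array. Differences cover miRNAs detected on both arrays, and 2-fold was the limit for counts. A bound sets the brighter array against the higher of the dimmer array's lowest detected level and the miRNA's own level there. All members were named, with the 3 miRNAs nearest in pattern for each member detected on all arrays; the relatives and marker lists were added for comparison. Members and lists were chosen with earlier results of these data known. The calculation was tested on simulated data, with noise of the size seen in the spike and blank spots. The planted changes were larger than any difference of a member detected on all arrays and lay in spots well above the blanks. Smaller changes, dim spots and variation between pools were not covered. Python 3.11.15, numpy 2.4.6, pandas 2.3.3, R 4.3.3 and limma 3.58.1 (normexp, offset 50, then quantile) were used. The number of arrays, 1 per group, limits the precision. Alternatives were 9 planned ones (background, scaling, source, detection) and 2 added after the data were seen.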

Additional observations from a re-analysis of the deposited data

Results flagged for a closer look

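The differences below had opposite signs in the 2 groups or days compared, with 1 array on each side, and the opposition was not tested. For miR-196b-3p, diabetic minus control was positive on day 5 and negative on day 11, so that the second minus the first was -1.03 ± 0.29 technical error. The same -1.03 separates its course over time in diabetic from that in control callus, which rests on the same 4 arrays. With normexp on the local background, diabetic minus control of miR-196b-3p was 0.20 on day 5 and -0.51 on day 11. For miR-10a-5p the corresponding value was 0.39 ± 0.17 for both ways of pairing the arrays. For diabetic minus control on day 11 against day 5, it was 0.38 ± 0.16 for miR-10b-5p and -0.22 ± 0.16 for miR-196a-5p. For the course over time in diabetic against control callus, it was 0.54 ± 1.00 for miR-10b-3p. Only for miR-196b-3p did both differences of opposite sign exceed 1 technical error. Over the 400 miRNAs detected on all arrays the middle 50% of such values lay between -0.41 and 0.35.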

How the results depend on the processing

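The count of Hox cluster miRNAs at least 2-fold different was 0, 0, 0 and 1 in the comparisons on day 5, on day 11, over time in control and over time in diabetic callus, and was the same under 10 of the 11 alternatives. With no detection filter it was 2 on day 5 and 3 over time in diabetic callus, the added ones being the dim miR-10a-3p and miR-196a-3p. All 9 members were then compared, and 20.5% and 24.9% of all 727 miRNAs were at least 2-fold different. With 9 members, these counts are near those shares. Without that filter and with values under the blank SD set to it, dim spots are compared whose levels lie within the blank noise. The 1 miRNA counted over time in diabetic callus was miR-615 under every alternative, with a log2 difference of 1.02 to 1.49. Its difference over time in control callus was 0.58 to 0.94, and those between diabetic and control callus were 0.053 to 0.51 on day 5 and 0.16 to 0.76 on day 11. Of 305 single differences under an alternative, 248 stayed within 1 technical error of the main value, 57 moved by more, 22 changed sign, and 0 of the differences of at least 2-fold changed sign. Of the 28 differences, 17 kept their sign under all alternatives that gave a value, and the largest main difference among the other 11 was that of miR-196b-5p over time in control callus, 0.34.

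Counts over all miRNAs moved by more than 1.5 times. On day 5 the main count of 32 of 468 became 2 with normexp on the local background, 1 with normexp on the blank mean, 18 of 404 with detection at 3 SD, 52 with the authors' values and 149 of 727 with no filter. On day 11 the count of 38 became 8 with normexp on the blank mean and 131 with no filter. Over time in control callus 62 became 24 with normexp on the blank mean and 158 with no filter, and in diabetic callus 53 became 16, 15 and 181 with normexp on the local background, normexp on the blank mean and no filter. The authors' values moved the median of all miRNAs to 0.34 on day 5 and to -0.29 over time in diabetic callus. Those values matched the spot minus the blank mean times 1 factor per array, as the main values are, but with other factors. All differences of a comparison thus shifted by about the same amount. This includes those whose sign turned in the authors' values, which are a change of scale and not a separate measurement. No paired analysis was possible because each group has 1 array.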
